A study of Mus musculus with 6 samples.

Results

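The genes examined here are 8 that build, load and switch on MHC class II, the surface molecule that shows peptides to CD4+ T cells. They were H2-Aa, H2-Ab1, H2-Eb1, Cd74, H2-DMa, H2-DMb1, H2-DMb2 and Ciita, taken by name from 19449 genes in the single-cell table, and all 8 were found there and in the bulk table. The single cells were CD45+ cells sorted from the spinal cords of C57BL/6 mice with adoptive transfer EAE, a model of autoimmune demyelination in which naive recipients are injected with CD4+ T cells. The donor T cells came from mice immunized with a myelin peptide, MOG35-55, and were cultured under Th17-polarizing conditions, so every recipient, young or middle-aged, had received them. Young recipients were 8 to 12 weeks old and middle-aged recipients 40 to 44 weeks old, cells were taken on day 6 or day 10, and each of the 4 libraries pooled 4 spinal cords, so there was 1 library per age and day. The other 2 libraries were bulk RNA from naive spinal cord microglia without treatment, 1 young and 1 middle-aged. No naive cord was analysed as single cells here, and both sexes were used in the study.

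Class II molecules are pairs of an alpha and a beta chain. H2-Aa and H2-Ab1 encode the chains of I-A, the only class II molecule that C57BL/6 mice carry to the cell surface, and H2-Eb1 encodes the beta chain of I-E, whose alpha chain gene is defective in this strain. Cd74, the invariant chain, holds new class II molecules on the way to the endosome and leaves a fragment in the peptide groove. H2-DM, made of an alpha chain from H2-DMa and a beta chain from H2-DMb1 or H2-DMb2, removes that fragment so that antigenic peptide can bind. Ciita is the coactivator that DNA-bound factors recruit to class II promoters, and interferon-gamma induces it, in part through Irf1. Dendritic cells and B cells hold class II at all times, whereas microglia at rest hold little of it and raise it during neuroinflammation.

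In GRCm38, with the genes of GENCODE vM21, 6 of the 8 genes lie in the class II region of chromosome 17, the 3 DM genes apart from the 3 chain genes. H2-DMa spans chr17:34119541-34139101, H2-DMb2 chr17:34143307-34151555 and H2-DMb1 chr17:34153072-34160230, all on the plus strand. H2-Ab1 spans chr17:34257689-34269419 (plus), H2-Aa chr17:34282744-34287823 (minus) and H2-Eb1 chr17:34305867-34316674 (plus). Ciita lies at chr16:10480059-10528418 on the plus strand, and Cd74 lies on another chromosome. H2-DMa, H2-Eb1 and Ciita overlap genes of the opposite strand (Brd2, Gm20513 and Dexi), whose reads the unstranded counting of the bulk libraries could not tell apart from theirs. H2-DMb1 and H2-DMb2 are near copies. Of the 50-base words in their longest coding transcripts, 27.2% of those of H2-DMb1 and 25.2% of those of H2-DMb2 are shared, and over the last 500 bases, where 3-prime tags fall, 20.4% of the words of H2-DMb1 and 0% of those of H2-DMb2 are, so counts of this pair are less certain than those of the other members.

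Promoters of class II genes are known for an X box, bound by RFX and CREB-type factors, and a Y box, bound by NF-Y, at a fixed spacing. RefSeq promoter windows on GRCm38.p6 (250 bases before to 50 after the start) were at hand for 5 members, H2-Aa, H2-Eb1, H2-DMa, H2-DMb1 and H2-DMb2. The letters searched, on both strands, were chosen after these windows had been read. They were AAC, any 2 bases and then ATGATG for the X box, TGATTGG for the Y box and TGACGTCA for a CREB-type site. The stretches from H2-Aa (chr17:34287857-34287907, minus strand), H2-Eb1 (chr17:34305768-34305822, plus) and H2-DMb2 (chr17:34145118-34145173, plus) are shown because these genes share the arrangement, with the upstream match and the Y box in capitals.
H2-Aa: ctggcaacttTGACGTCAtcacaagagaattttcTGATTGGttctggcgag
H2-Eb1: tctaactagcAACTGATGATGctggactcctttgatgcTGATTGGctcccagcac
H2-DMb2: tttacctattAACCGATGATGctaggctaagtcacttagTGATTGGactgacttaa
The number of bases between the matches was 16 in H2-Aa, where the upstream match was the CREB-type site, 17 in H2-Eb1 and 18 in H2-DMb2. The window of H2-DMb1 held the same pair of boxes, also 18 bases apart, in a stretch that had 47 of 56 bases (83.9%) in common with that of H2-DMb2 and that GENCODE places in an untranslated exon of H2-DMb1. The Y letters occurred in 2568 of 32851 windows (7.82%), the X letters in 45 (0.137%) and the CREB-type letters in 588 (1.79%). X and Y on the same strand occurred in 4 windows (0.0122%), those of H2-Eb1, H2-DMb1, H2-DMb2 and H2-Ob, a subunit of the DM inhibitor H2-DO. The window of H2-DMa held neither the X nor the Y letters, which says only that these letters are not in it.

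The 4 single-cell libraries held 8315 to 10026 cells and 57337626 to 69859331 UMIs (unique molecular identifiers, by which a transcript is counted once however often it was read), with a median of 4704.5 to 6196 UMIs per cell. Cells were grouped by the 16 deposited cluster numbers, which come without names and were made from variable genes of these same cells, so levels by cluster are a description. By markers that include no class II gene, cluster 10 (1344 cells) was microglia-like, with all 9 microglial markers at least 2-fold above the other clusters and Cx3cr1, Sparc, Olfml3 and Tmem119 among its 10 leading genes. Clusters 1 (9645 cells, led by Arg1 and Nos2) and 5 (2211 cells, led by Vcan and F13a1) were monocyte/macrophage-like, cluster 7 (1432 cells) dendritic cell-like and cluster 4 (1360 cells) B cell-like. Cluster 8 (2057 cells) was led by Syngr1, C1qa, C1qb and Trem2. Of the 9 microglial markers, 8 were at least 2-fold above the other clusters in it. It was still left unnamed, since none of its 10 leading genes was a microglial marker. Its young day 6 cells also had a median of 2059 UMIs, against 6196 in their library. Barcodes found in more than 1 library numbered 154, on 308 of 38057 cells. A level in CPM is the UMIs of a gene per 1000000 UMIs that a cluster held in a library. Values of the 4 libraries are given in the order young day 6, middle-aged day 6, young day 10 and middle-aged day 10. Intervals in brackets are 95% and cover counting error only.

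Class II RNA made up the largest part of the transcripts in dendritic cell-like cells. The median H2-Aa level over the 4 libraries was 5518 CPM in cluster 7, 3489 in B cell-like cluster 4, 2457 in cluster 1, 1758 in microglia-like cluster 10 and 1664 in cluster 8. Levels in cluster 7 did not overlap those in cluster 4 for H2-Aa, H2-Ab1, H2-Eb1, Cd74 or Ciita. From cluster 4 down to cluster 8, each neighbour in the order of H2-Aa overlapped the next, because clusters 1, 10 and 8 each spanned a wide range between libraries. The H2-Aa level in cluster 10 ran from 292 to 3185 CPM, whereas in cluster 7 it ran from 4576 to 5657 CPM. T cell-like cluster 2, which should hold little class II, had 14.5, 16.3, 29.9 and 39.998 CPM of H2-Aa and 44.5, 49.98, 81.7 and 100.5 CPM of Cd74. The order differed for the loading genes. H2-DMa was highest in clusters 7 (median 819 CPM), 10 (705) and 8 (662), with overlapping ranges, and B cell-like cells, at 459 CPM, came after cluster 1.

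**Figure D1:**
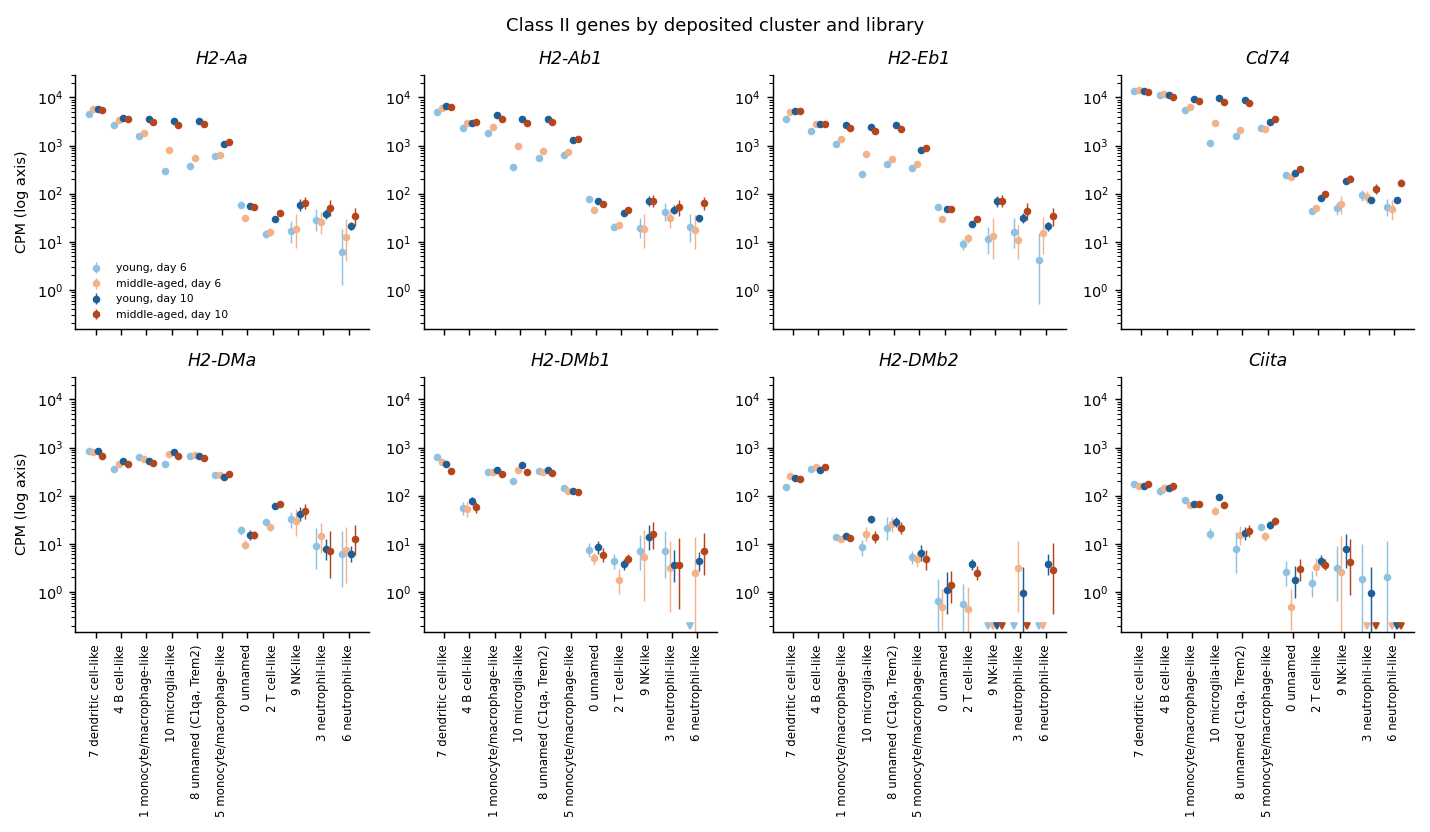
Level of each of the 8 genes in CPM (log axis) in 11 deposited clusters, 1 point per library, with bars for the 95% counting interval and triangles at the bottom for libraries with no UMI. H2-Aa lay between 4576 and 5657 CPM in the dendritic cell-like cluster and between 292 and 3185 CPM in the microglia-like cluster, where the 4 libraries stand apart by day.

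The beta chain genes of H2-DM were used in different proportions. In B cell-like cluster 4, H2-DMb2 made up 86.9%, 88.2%, 81.7% and 87.5% of the H2-DMb1 and H2-DMb2 UMIs. Dendritic cell-like cells lay between, at 19.4%, 34.4%, 34.2% and 40.5%. In the microglia-like cluster the share was 3.95%, 4.53%, 6.88% and 4.31%, and in the bulk microglia it was 5.71% in young and 7.41% in middle-aged mice. Cluster 8 and the monocyte/macrophage-like clusters were likewise low in every library, so the 3 ranges of B cell-like, dendritic cell-like and myeloid clusters did not overlap. In CPM, H2-DMb2 was 364, 395, 347 and 399 in cluster 4 and 8.44, 15.9, 32.2 and 13.9 in cluster 10, while H2-DMb1 was 54.9, 53.0, 77.9 and 56.9 in cluster 4 and 205, 336, 435 and 309 in cluster 10. The part of the sequence that the pair shares in these values was not tested.

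**Figure D2:**
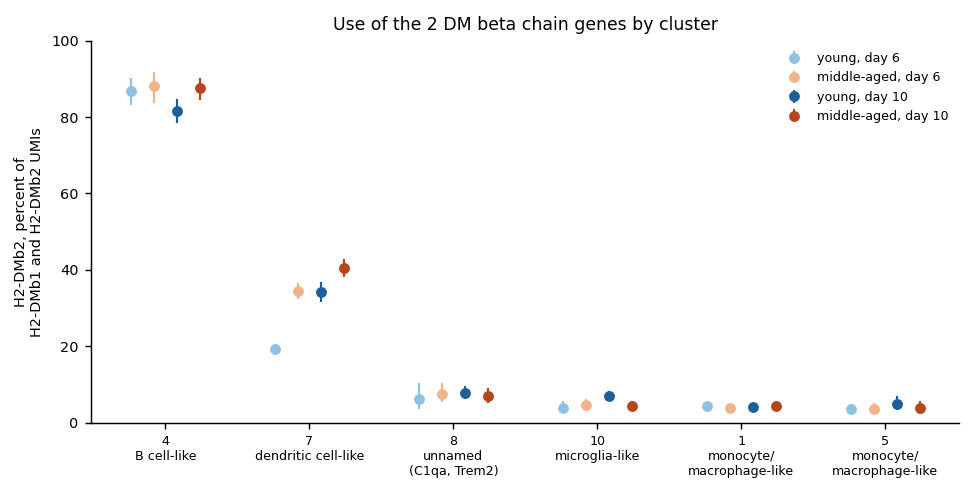
H2-DMb2 as a percent of all H2-DMb1 and H2-DMb2 UMIs in 6 clusters, 1 point per library with its exact binomial 95% interval. The B cell-like cluster sits between 81.7% and 88.2%, the dendritic cell-like cluster between 19.4% and 40.5%, and the microglia-like cluster between 3.95% and 6.88%.

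Microglia-like cells had far more class II RNA on day 10 than on day 6, at both ages. H2-Aa was at 292, 828, 3185 and 2689 CPM, from 1003, 1973, 11193 and 8699 UMIs. H2-Ab1, its partner chain, was at 363, 984, 3580 and 2902 CPM. Both day 10 libraries lay above both day 6 libraries for these genes, and the same order held for H2-Eb1 (256, 657, 2482 and 1985 CPM) and for the invariant chain Cd74 (1141, 2953, 9525 and 8118 CPM). Ciita, the coactivator, was at 16.3, 47.4, 93.3 and 62.7 CPM, again with both day 10 values on top, though from 56, 113, 328 and 203 UMIs only.

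In an edgeR quasi-likelihood fit over the 4 libraries, with age and day in the model, the day effect on cluster 10 passed an adjusted p of 0.05 for 5 of the 8 genes, all higher on day 10, where 3.18% of 10562 genes were called higher. H2-Aa rose by 2.72 on the log2 scale (adjusted p = 0.00383), H2-Eb1 by 2.58 (adjusted p = 0.00381), H2-Ab1 by 2.58 (adjusted p = 0.00503), Cd74 by 2.41 (adjusted p = 0.0128) and Ciita by 1.56 (adjusted p = 0.0229). The genes of the DM heterodimer did not pass, with log2 fold changes of 0.49 for H2-DMa (adjusted p = 0.403), 0.63 for H2-DMb1 (adjusted p = 0.244) and 1.08 for H2-DMb2 (adjusted p = 0.139). The fit rests on 1 residual degree of freedom, and DESeq2 called 0 of the 8 genes, with 4 at an unadjusted p under 0.05 and nearly the same fold changes (H2-Aa 2.72, adjusted p = 0.062). Without the young day 10 library fewer members and fewer of all genes were called, and without the middle-aged day 6 library more of both. Such fits leave 1 library on a day.

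Within each age the ratios of single libraries can be described but not tested. In young mice, 7 of the 8 genes were at least 2-fold higher on day 10 in cluster 10, where 2.98% of 7051 genes with 100 or more UMIs were. The log2 ratio was 3.45 [3.35, 3.54] for H2-Aa, 3.30 for H2-Ab1, 3.28 for H2-Eb1 and 3.06 for Cd74, and 0.82 [0.73, 0.91] for H2-DMa, the gene under 2-fold. In middle-aged mice, 4 of the 7 genes with enough UMIs were at least 2-fold higher, where 1.31% of genes were. They were again the chain genes and Cd74, with log2 ratios of 1.70 [1.63, 1.77] for H2-Aa, 1.56 for H2-Ab1, 1.59 for H2-Eb1 and 1.46 for Cd74, while H2-DMa was at -0.15 and H2-DMb1 at -0.12. The median over the measured members was 2.79 in young and 0.93 in middle-aged mice, beside -0.18 and -0.12 over all genes.

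The ages differed on day 6 in this cluster. On that day, 5 of the 7 members with enough UMIs were at least 2-fold higher in middle-aged than in young microglia-like cells, where 1.5% of 6668 genes were. Middle-aged over young gave a log2 ratio of 1.505 [1.39, 1.62] for H2-Aa, 1.44 for H2-Ab1, 1.36 for H2-Eb1, 1.37 for Cd74 and 1.54 [1.07, 2.03] for Ciita. H2-DMa and H2-DMb1 were each at 0.71, and H2-DMb2 at 0.92 [0.18, 1.67], from 29 and 38 UMIs. The median was 1.37, beside -0.04 over all genes. On day 10 the sign was the other way for all 8 genes. The log2 ratios were then -0.24 [-0.28, -0.20] for H2-Aa, -0.30 for H2-Ab1, -0.32 for H2-Eb1, -0.23 for Cd74 and -0.57 [-0.83, -0.32] for Ciita. Only H2-DMb2, at -1.21 [-1.74, -0.70], was 2-fold lower, where 0.328% of genes were. The medians on day 10 were -0.31 for the members and -0.00 for all genes. The age effect over both days was called for none of the 8 genes by edgeR in cluster 10, where 0.142% of genes were called in either direction, and 0 members had an unadjusted p under 0.05 by edgeR or by DESeq2. Without cells holding UMIs of other lineages, a filter that can also drop microglia, 3 members had such a p by edgeR, with 0 called. Some members also had such a p with either young library left out. Those fits leave 1 young library and hold no term for day, so they cannot tell age from day. With 1 library per age and day, a difference between mice and one between libraries cannot be told apart.

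**Figure D3:**
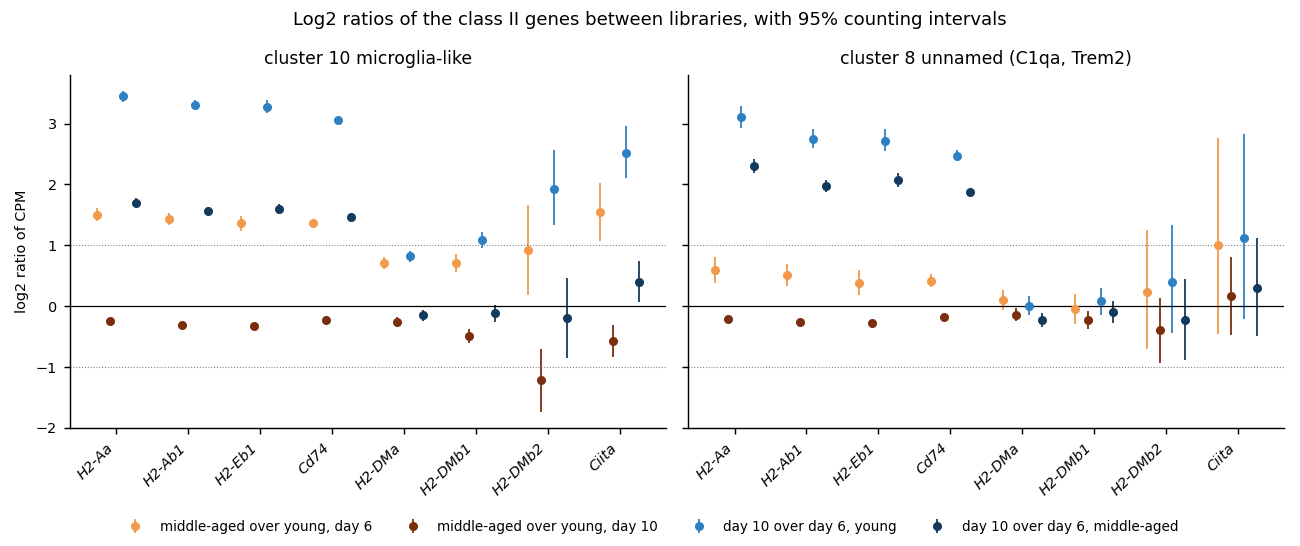
Log2 ratios of CPM between pairs of libraries for the 8 genes in microglia-like cluster 10 (left) and unnamed cluster 8 (right), with 95% counting intervals and dotted lines at a 2-fold difference. In cluster 10 the day 10 over day 6 ratio of H2-Aa was 3.45 in young and 1.70 in middle-aged mice, and middle-aged over young was 1.505 on day 6 and -0.24 on day 10.

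Other measures moved along with class II in cluster 10, and their part in the result was not tested. Summed levels of the 9 microglial markers, all of them detected in each library, were 10180, 6374, 6691 and 6582 CPM. The 10 monocyte/macrophage markers, also all detected, summed to 2723, 2902, 3871 and 4941 CPM, and the 8 border macrophage markers, 6 or 7 of them detected, to 53.2, 64.2, 105 and 138 CPM. Median depth was 6931, 10000, 8673.5 and 8394 UMIs per cell, in 432, 216, 362 and 334 cells. When cells with UMIs of T cell, B cell, NK, dendritic cell or neutrophil markers were left out, which kept 116, 82, 102 and 142 cells, the log2 ratio of H2-Aa between ages on day 6 was 2.61 and the day effect on H2-Aa 3.02 (edgeR, adjusted p = 0.000764). This filter does not remove cells by monocyte/macrophage or border macrophage markers. Its dendritic cell list holds Siglech (78453 and 70900 bulk counts, young first) and Fscn1 (52613 and 54571), which sorted naive microglia also carried. The filter can therefore also drop microglia, and the number dropped in this way was not counted.

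On day 10 nearly all microglia-like cells held class II transcripts, not a few of them. UMIs of H2-Aa, H2-Ab1, H2-Eb1 and Cd74 together, per 10000 UMIs of a cell, had a median of 2.36, 25.7, 190 and 155. On day 6 the cells spread widely, from 0 at the 10th percentile to 41.2 at the 90th in the young library and from 1.14 to 148 in the middle-aged library. On day 10 they ran from 96.0 to 286 and from 64.4 to 265, so that even the 10th percentile of either day 10 library lay above the median of both day 6 libraries. All 4 transcripts were detected together in 18.8%, 61.6%, 97.5% and 97.6% of cells, and none of them in 28.2%, 7.87%, 0.276% and 0%. The 10 cells with the most of these UMIs held 41.1%, 22.8%, 7.71% and 10.1% of the total, so the young day 6 level leaned on few cells. The 0% on day 10 is 0 of 334 cells, which allows a share of up to 0.898%.

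**Figure D4:**
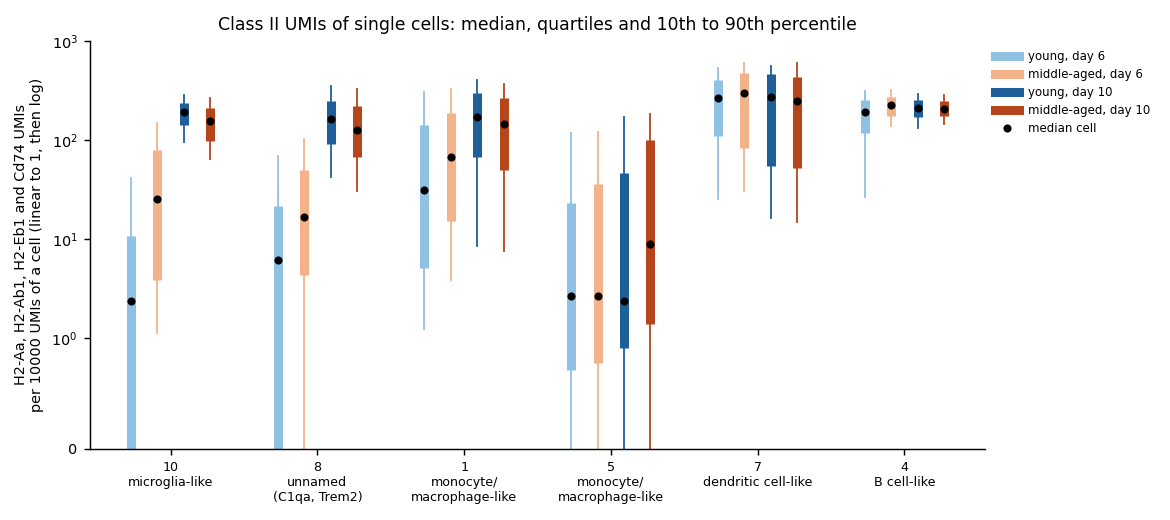
UMIs of H2-Aa, H2-Ab1, H2-Eb1 and Cd74 together per 10000 UMIs of a cell (axis linear to 1, then logarithmic), by cluster and library, with the median as a point, the quartiles as a thick bar and the 10th to 90th percentile as a thin line. Median microglia-like cells were at 2.36, 25.7, 190 and 155, while B cell-like medians stayed between 190 and 223.

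The share of cells with a UMI depends on depth, so each cell was also thinned to 1000 UMIs. H2-Aa was found in 30.1%, 69.9%, 97.8% and 98.8% of microglia-like cells before thinning and in 11.2%, 37.7%, 90.9% and 85.1% after it. In T cell-like cluster 2 the thinned shares were 1.62%, 1.87%, 2.91% and 3.45%, and in neutrophil-like cluster 6 they were 0.495%, 1.86%, 1.94% and 2.60%. All 4 microglial shares thus lay above the level in cells that should lack the gene. For Cd74 the thinned shares were 30.1%, 61.4%, 98.7% and 98.3% in cluster 10 and 4.15%, 4.66%, 7.33% and 7.09% in cluster 2. Ciita was sparse, at 1.22%, 4.31%, 9.82% and 6.17% of thinned microglia-like cells, against 0.210%, 0.302%, 0.449% and 0.320% of T cell-like cells. H2-DMa was already in 32.4% and 49.4% of microglia-like cells on day 6 and in 55.0% and 48.3% on day 10. Cells under 1000 UMIs, which thinning leaves out, numbered 8, 1, 1 and 2 in cluster 10.

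Chain genes and loading genes therefore stood in different proportions on the 2 days. The number of H2-DMa UMIs per H2-Aa UMI in cluster 10 was 1.55, 0.894, 0.252 and 0.249, so DM alpha transcripts outnumbered I-A alpha transcripts in young cells on day 6 and were fewer in the other libraries. In T cell-like cells the same ratio was 1.93, 1.36, 2.03 and 1.71 and showed no such step. Cd74 kept closer to H2-Aa, with 3.91, 3.57, 2.99 and 3.02 UMIs per H2-Aa UMI in cluster 10. Per 1000 UMIs of the chain genes and Cd74 there were 7.94, 8.75, 4.97 and 4.00 Ciita UMIs, lower on day 10 although the Ciita level itself was higher. These ratios compare captured UMIs, which count a transcript once whatever its length.

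Cluster 8 had the same step between days for the chain genes and Cd74. H2-Aa was at 370, 560, 3188 and 2768 CPM and Cd74 at 1579, 2113, 8752 and 7717 CPM. H2-DMa, at 659, 708, 664 and 604 CPM, and H2-DMb1, at 319, 310, 337 and 289 CPM, showed no such step. By edgeR the day effect was called for 4 of the 8 members, all higher on day 10, where 6.5% of 8371 genes were called higher. H2-Aa rose by 2.97 (adjusted p = 4.55e-10), H2-Eb1 by 2.67 (adjusted p = 1.1e-09), H2-Ab1 by 2.63 (adjusted p = 1.28e-09) and Cd74 by 2.45 (adjusted p = 2.14e-10), and DESeq2 also called 4. Ciita, at 7.68, 15.4, 16.8 and 18.8 CPM, had a log2 fold change of 0.83 (adjusted p = 0.166), and H2-DMa one of 0.17 (adjusted p = 0.591). In single comparisons, 4 of the 6 members with enough UMIs were at least 2-fold higher on day 10 in young mice, where 5.76% of genes were, and 4 of 6 in middle-aged mice, where 3.14% were. The log2 ratio of H2-Aa was 3.11 in young and 2.30 in middle-aged mice.

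Between ages the differences in cluster 8 were smaller than in cluster 10. Middle-aged over young gave log2 ratios of 0.60 [0.39, 0.81] for H2-Aa and 0.42 for Cd74 on day 6, and -0.20 and -0.18 on day 10. No member was called for age by edgeR, where 0.0956% of genes were, and 0 had an unadjusted p under 0.05 by edgeR or DESeq2. Summed marker levels of cluster 8 also differed between days. Its 10 monocyte/macrophage markers, 9 or 10 of them detected, summed to 1315, 2129, 16267 and 18661 CPM and its 9 microglial markers to 6035, 3941, 2648 and 3210 CPM. Over all libraries, 1 of the 10 monocyte/macrophage markers was at least 2-fold above the other clusters in cluster 8. Whether other cells entered the cluster or its cells changed their RNA was not tested. The part of this shift in the class II values was not tested either. The median cell of cluster 8 held 6.19, 16.8, 162 and 127 UMIs of the chain genes and Cd74 per 10000.

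Arg1-led monocyte/macrophage-like cluster 1, the cluster with the most class II UMIs in each library, held more chain transcripts on day 10. H2-Aa was at 1572, 1852, 3577 and 3062 CPM and H2-Eb1 at 1077, 1338, 2711 and 2309 CPM, both day 10 values being on top. The day effect was called for H2-Eb1 (log2 fold change 0.89, adjusted p = 0.0086), H2-Aa (0.79, adjusted p = 0.0144) and H2-Ab1 (0.74, adjusted p = 0.0276), 3 of the 8 members by edgeR and by DESeq2, where 14.7% of 12222 genes were called higher. The calls did not hold by edgeR when either day 10 library was left out. Without the middle-aged day 6 library more members and more of all genes were called, and the members were not all higher on day 10. Such fits leave 1 library on a day. Cd74 had a log2 fold change of 0.40 (adjusted p = 0.155). H2-DMa was at 629.5, 583, 538 and 487 CPM (log2 fold change -0.41, adjusted p = 0.144) and Ciita at 82.0, 64.6, 68.1 and 65.9 CPM (-0.29, adjusted p = 0.257), so neither the DM alpha chain nor Ciita was higher on day 10. In young mice 3 of the 8 members were at least 2-fold higher on day 10, where 8.94% of genes were, and in middle-aged mice 0 of 8, where 12% were. For age, 0 members were called by edgeR, where 0.0982% of genes were, and 0 reached an unadjusted p under 0.05 with either tool.

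In Vcan-led cluster 5 the sign of the day effect turned on a subset of cells. Over all its cells H2-Aa was at 601, 628, 1059 and 1187 CPM, and the day effect was called higher for H2-Eb1 (log2 fold change 0.85), H2-Ab1 (0.66) and H2-Aa (0.58, adjusted p = 0.00723), 3 of the 8 members by edgeR, where 10.2% of genes were called higher. Fewer members and fewer of all genes were called by edgeR without the middle-aged day 10 library or either young library, in fits that leave 1 library on a day. In single comparisons, 2 of the 7 members with enough UMIs were at least 2-fold higher on day 10 in young mice, where 7.91% of genes were, and 2 of 7 in middle-aged mice, where 7.81% were. Cells of this cluster that carried 2 or more UMIs of T cell markers, which mark another lineage, numbered 108, 106, 124 and 171, or 13.2%, 16.5%, 30.3% and 49.7%. They held 27.0%, 34.8%, 88.9% and 90.4% of the chain and Cd74 UMIs of the cluster.

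In cells with such UMIs H2-Aa was at 819, 897, 2104 and 1710 CPM, and in the rest of cluster 5 at 547, 546, 213 and 278 CPM. The cells with T cell markers were also deeper, with medians of 13646.5, 13692.5, 15239.5 and 15378 UMIs against 8291, 9277, 8179 and 8497. Without them 6 of the 8 members were called by edgeR and all 6 were lower on day 10, where 9.72% of genes were called lower, with log2 fold changes of -1.42 for H2-Aa (adjusted p = 0.000146), -1.40 for H2-Ab1 and -0.96 for H2-Eb1. Whether those cells are doublets was not tested, and no doublet caller was run. Such cells were 3.01% to 6.63% of cluster 10, where the day effect on H2-Aa was 2.75 without them, and at most 4.07% of cluster 1. They were 13.1%, 8.30%, 13.1% and 17.6% of dendritic cell-like cluster 7. Their H2-Aa there was at 3101, 3662, 3232 and 3650 CPM, below the 4912, 5921, 6207 and 5998 CPM of the other cells. The age effect was called for 0 members of cluster 5 by edgeR, where 0.655% of genes were, with 0 at an unadjusted p under 0.05 by edgeR or DESeq2.

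**Figure D5:**
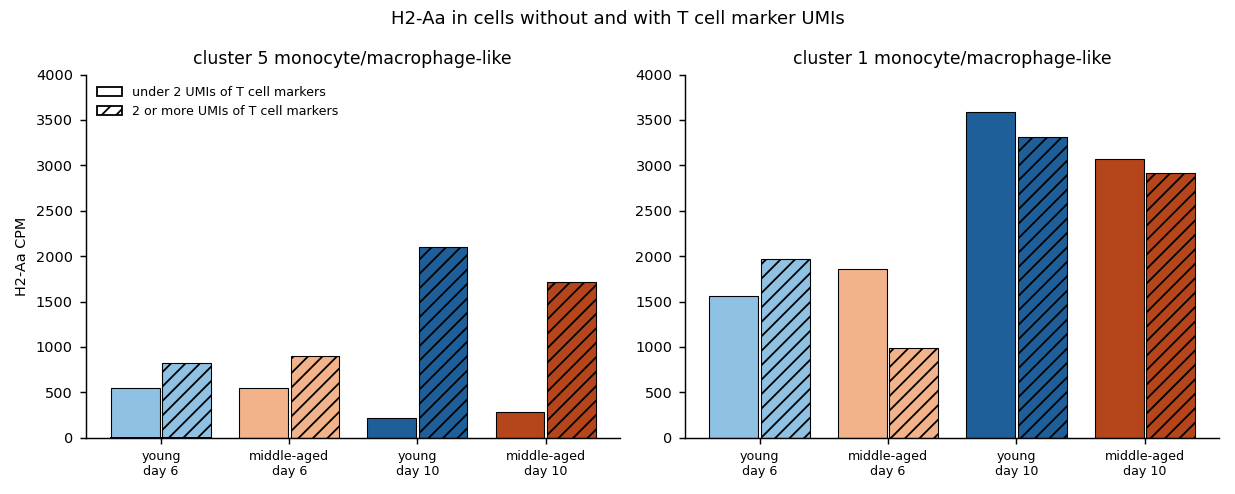
H2-Aa in CPM in cells with under 2 UMIs of T cell markers (plain bars) and with 2 or more (hatched bars), by library, in monocyte/macrophage-like clusters 5 (left) and 1 (right). In cluster 5 the plain bars fall from 547 and 546 on day 6 to 213 and 278 on day 10, while the hatched bars are at 2104 and 1710 on day 10.

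In the clusters with steady class II cell types, dendritic cell-like and B cell-like, no member passed the test for day or age. In dendritic cell-like cluster 7, Cd74 was at 13708, 14157, 13337 and 13055 CPM and Ciita at 177, 159, 157 and 176 CPM. No ratio between libraries reached 2-fold for any member, the range of log2 ratios being -0.59 to 0.76. edgeR called 0 members for day, where 6.48% of genes were called in either direction, and 0 for age, where 0.466% were. At an unadjusted p under 0.05 there was 1 member for day, by edgeR and by DESeq2, and 0 for age. This was H2-DMb1, at 639, 494, 451 and 327 CPM (log2 fold change -0.62, adjusted p = 0.0711). In B cell-like cluster 4, H2-Aa was at 2653, 3399, 3697 and 3579 CPM and Ciita at 128, 143, 142 and 155 CPM, and log2 ratios ran from -0.45 to 0.53. No member was called for day by edgeR, where 2.77% of genes were called in either direction, or for age, where 0.896% were, and 0 had an unadjusted p under 0.05 for either effect with either tool. With 1 residual degree of freedom, a missed threshold does not show that levels were the same. Without the middle-aged day 6 library edgeR called members for day in both clusters, all higher in cluster 4 and in both directions in cluster 7. Members called in cluster 7 without the young day 6 library were lower on day 10. Some were called for age in cluster 4 without the young day 10 library. Such fits leave 1 library in a group, and those for age hold no term for day.

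The cells that supplied class II RNA shifted with the library. Cluster 1 held 48.1%, 66.9%, 65.0% and 63.2% of all UMIs of the chain genes and Cd74. Dendritic cell-like cells were 7.53%, 2.88%, 2.01% and 3.23% of cells and held 38.5%, 19.3%, 8.32% and 13.5% of these UMIs. Microglia-like cluster 10 held 1.52%, 2.74%, 9.44% and 7.58%, and cluster 8 held 0.405%, 1.09%, 6.54% and 5.87%. The share of the dendritic cell-like cluster was thus largest in the young day 6 library and that of clusters 10 and 8 largest on day 10. Each share follows both the number of cells captured and the UMIs per cell, and cells were chosen by a CD45 sort.

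Other genes of the class II pathway were examined as a list of 21 in the single-cell table. Both genes of the DM inhibitor H2-DO had more RNA on day 10 in microglia-like cells. The alpha chain gene H2-Oa was at 17.2, 50.8, 152 and 109 CPM in cluster 10 and rose by 2.22 (edgeR, adjusted p = 0.00367). The beta chain gene H2-Ob was at 8.44, 6.30, 19.1 and 12.98 CPM, from 29 and 15 UMIs on day 6, and rose by 1.27 (edgeR, adjusted p = 0.0301). The list was examined with edgeR only, not with DESeq2, which called 0 of the 8 members for day in this cluster. Cd83, which keeps class II at the surface, rose by 1.06 (adjusted p = 0.0175). These were the only 3 of the 20 list genes tested that passed for day in cluster 10, where 3.18% of all genes were called higher. Of the list 0 were lower, where 3.46% of all genes were. Irf1, a transcription factor that interferon-gamma induces, was at 487, 506, 307 and 246 CPM and did not pass there. The proteases that cut the invariant chain, such as Ctss at 5926, 6171, 9325 and 8170 CPM, did not pass either.

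In cluster 8 H2-Oa rose by 1.82 (adjusted p = 0.000163) and Ctss, the cathepsin that trims the invariant chain, by 0.87, and Irf1 fell by 1.34 (adjusted p = 4e-05), 2 higher and 1 lower of 20, where 6.5% of all genes were called higher and 6.9% lower. In cluster 1, 3 of 21 were higher on day 10 (H2-Oa, Lgmn and Ctsl, the last 2 endosomal proteases) and 4 were lower, shares near those of all genes, of which 14.7% were called higher and 15.2% lower. The 4 were Cd83, Irf1 (log2 fold change -1.45), the interferon-gamma receptor kinase gene Jak2 (-1.33) and the NF-Y subunit gene Nfyb (-0.57). Chain genes differed in sign from Irf1 and Jak2 in cluster 1. In cluster 5, 2 of 19 were higher and 5 lower, where 10.2% of genes were called higher and 15.3% lower. In cluster 7, 1 of 21 was lower, Irf1 (-0.78), a share near the 4.55% of all genes called lower, and 0 were higher, where 1.93% of genes were. In cluster 4, 2 of 21 were higher, Ctsl (1.45) and H2-Eb2 (0.74), where 1.03% of genes were, and 0 were lower, where 1.74% were. B cell-like cells held the most H2-Ob of the clusters described, at 269 to 346 CPM. For age, 1 list gene passed in the 6 clusters, where 0.0956% to 0.896% of all genes were called in either direction. It was H2-Eb2 in cluster 7, where 0.466% were called, at 1.35, 8.49, 3.72 and 11.3 CPM (log2 fold change 2.19, edgeR adjusted p = 0.045). These levels are low beside 58.2, 91.6, 104 and 134 CPM in B cell-like cluster 4. B cell markers summed to 144, 174, 200 and 234 CPM in cluster 7, and their part in this value was not tested.

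Genes other than the 8 members were ranked by how closely they followed the chain genes. Over 57 sums of a cluster and library with 20 or more cells, Pearson's r of log2(CPM + 1) with the mean of H2-Aa, H2-Ab1, H2-Eb1 and Cd74 was computed for 10277 genes. Among them it was highest for Ifi30, the thiol reductase of the class II pathway (0.931), Rnase6 (0.915) and Kynu (0.895), followed by Tbc1d9, Pld4, Prcp, Carmil1, Scpep1, Plekho1 and Ly86 (0.868 down to 0.850). Of the members not in the mean, r was 0.931 for Ciita, 0.913 for H2-DMa, 0.902 for H2-DMb1 and 0.854 for H2-DMb2. The sums of a library share its depth and those of a cluster its cell type, so these values describe the pattern across cell types and are not independent points.

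Bulk RNA of sorted naive microglia held class II transcripts at both ages, and no member was 2-fold apart between the ages. The bulk libraries held 79373420 (young) and 76293436 (middle-aged) counts. Microglial markers summed to 31046 and 29171 CPM, and their 9 genes were all detected. H2-Aa had 8914 and 8145 counts, H2-Ab1 9086 and 7942, H2-Eb1 8745 and 7447 and Cd74 20433 and 19018, young first. The log2 ratios of middle-aged over young were -0.07, -0.14, -0.17 and -0.05. Of the 8 members 0 were thus 2-fold apart, where 8.08% of 14821 genes with 100 or more counts were, and their median was -0.10, beside -0.01 over all those genes. H2-DMa was at 11134 and 10656 counts (log2 ratio -0.01 [-0.04, 0.03]) and H2-DMb1 at 7135 and 6271. The largest ratios belonged to the lowest counts, Ciita with 395 and 270 (-0.49 [-0.72, -0.26]) and H2-DMb2 with 432 and 502 (0.27 [0.09, 0.46]). With 1 library per age there was no test.

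Per kilobase of exon, Cd74 was the highest member in the bulk libraries of naive microglia, at 153 CPM per kb in young and 148 in middle-aged mice. H2-Eb1 was at 56.7 and 50.2, H2-DMb1 at 53.5 and 48.9, H2-Ab1 at 44.6 and 40.5, H2-DMa at 40.7 and 40.5 and H2-Aa at 29.6 and 28.1. By this measure H2-DMa and H2-DMb1 were within the range of the chain genes in naive microglia, while H2-DMb2 (3.12 and 3.77) and Ciita (0.522 and 0.371) were far below. The length used joins the exons of all annotated transcripts of a gene (3798 bases for H2-Aa, 1944 for H2-Eb1), so the order depends on the annotation. Reads of opposite-strand genes may also add to H2-DMa, H2-Eb1 and Ciita. Of the other pathway genes 19 had 100 or more counts and 0 were 2-fold apart. H2-Oa had 1000 and 998 counts and H2-Ob 3374 and 3332, whereas Cd83 had 20102 and 30059 (log2 ratio 0.64). Markers of other cells were present at a low level. All 8 border macrophage markers were detected, at 1169 and 1047 CPM in sum, and 3 that microglia lack differed between ages, Mrc1 with 12684 and 5878 counts, Cd163 with 2290 and 944 and Lyve1 with 793 and 310. The 10 monocyte/macrophage markers, all detected, summed to 603 and 534 CPM. The 10 neutrophil markers, all detected, were higher in the middle-aged library, at 688 and 823 CPM. Csf3r made up 36703 and 42707 of their 54570 and 62755 counts. Endothelial markers summed to 509 and 141 CPM, and the 8 B cell markers, 5 and 6 of them detected, to 39.0 and 23.2 CPM. The part of such cells in the bulk class II counts was not tested, and in bulk RNA fewer cells of a type and less RNA per cell cannot be told apart.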

How the data were processed

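The authors counted single-cell reads with Cell Ranger 3.1.0 on mm10 with GENCODE vM23 genes, removed cells by genes, depth and mitochondrial or ribosomal reads, integrated the libraries and clustered the cells. They deposited the UMI count of each gene in each cell, unscaled, and a cluster number for the cell. Deposited bulk counts are raw reads per gene, aligned with HISAT2 and counted by featureCounts without strand (Ensembl release 99). Gm26917 held 10.7% and 10.8% of them. Here UMIs were summed by cluster and library. Log2 ratios have exact conditional binomial intervals, CPM exact Poisson intervals and shares exact binomial intervals, all for counting error only. Genes with a summed count of 100 or more over the pair formed the background of 2-fold calls. Day and age effects were fitted with edgeR 4.0.16 (quasi-likelihood, TMM, 10 or more counts in 2 or more libraries, R 4.3.3), with Benjamini-Hochberg adjustment over all genes tested, and again with DESeq2 1.42.0. Libraries pool mice, and no age and day has a second library, so p-values do not measure a spread between like libraries. The residual is what age and day added together leave unexplained. It includes any difference in the age effect between the days. Ratios were computed with scipy 1.17.1, numpy 2.4.6 and pandas 2.3.3 under Python 3.11.15, and figures drawn with matplotlib 3.10.9. Scripts were tested on simulated data. No doublet caller was run. An alternative left out cells that held markers of another lineage (at least 2 UMIs, or at least 5 for neutrophil markers). Its dendritic cell list holds Siglech and Fscn1, which the bulk naive microglia also held. Another alternative, chosen after seeing the data, left out cells with 2 or more UMIs of T cell markers. Genes named were the 8 members, a fixed pathway list and the 10 non-member genes most like the chain genes. One gene of the pathway list is not reported here. Members and lists were chosen with earlier results of these data known. Flow cytometry and other experiments of the study were not analysed here.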

Additional observations from a re-analysis of the deposited data

Results flagged for a closer look

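In microglia-like cluster 10, middle-aged over young had opposite signs on day 6 and day 10 for 7 of the 8 genes, with counting intervals clear of 0 on both days and at least 1 log2 unit between the days. The log2 ratio was 1.505 on day 6 and -0.24 on day 10 for H2-Aa, 1.44 and -0.30 for H2-Ab1, 1.36 and -0.32 for H2-Eb1, and 1.37 and -0.23 for Cd74. For the loading and control genes it was 0.71 and -0.49 for H2-DMb1, 0.92 and -1.21 for H2-DMb2, and 1.54 and -0.57 for Ciita. H2-DMa, at 0.71 and -0.26, had the same signs but less than 1 unit between the days. Each value compares 1 library with 1 library, and the difference between the days was not tested. In no other of the 6 clusters did a member meet these conditions.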

How the results depend on the processing

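With 1 residual degree of freedom and 1 library per age and day, precision between mice is unknown, and sparse genes (Ciita, H2-DMb2) are limited by counts. No paired analysis was possible because each age and day has 1 library, from other mice, and the labels carry no replicate numbers. With a library left out, only the tested effect is in the model and 1 library is left in a group, so age cannot be told apart from day. Counts of members 2-fold apart stayed within 1.5 times in 133 of 144 checks, many of which began and ended at 0. Single log2 ratios of members were less steady. They left their counting interval in 361 of 1150 checks and reversed in another 7. Of 90 checks of called day fold changes with no library left out, 76 kept the call and sign, 8 lost the call and 6 reversed. In cluster 5, day 10 over day 6, the 2 members became 0 with TMM or with the mean over cells at both ages. Without cells holding UMIs of another lineage they became 5 lower in young and 6 lower in middle-aged mice. Without cells with T cell marker UMIs they became 4 and 1 lower. The lineage filter kept only 284, 141, 21 and 51 cells of cluster 5, so its day 10 values there rest on few cells. In cluster 7 it kept 141, 74, 46 and 108. The same lineage filter gave 1 member instead of 0 between ages on day 10 in cluster 5, and in cluster 7 2 instead of 0 between ages on day 6 and 1 instead of 0 between days in young mice. Log2 ratios in cluster 5 reversed without other-lineage and T marker cells, respectively, to -1.52 and -1.26 (H2-Ab1, young), -1.68 and -0.70 (H2-Eb1, young) and -1.41 and -0.73 (H2-Eb1, middle-aged), and Ciita in middle-aged mice to -1.23 with the lineage filter. The edgeR day effects of cluster 5 reversed to -1.80 and -1.42 (H2-Aa), -1.76 and -1.40 (H2-Ab1) and -1.59 and -0.96 (H2-Eb1), and the T marker filter gave 6 called members instead of 3. DESeq2 called 0 instead of 5 in cluster 10 for day, and no filter on low counts gave 1 instead of 0 in cluster 7. Leaving out 1 library at a time, members called for day ran from 3 (without young day 10) to 8 (without middle-aged day 6) in cluster 10, from 0 (without either day 10 library) to 5 (without middle-aged day 6) in cluster 1, from 0 (without middle-aged day 10; 1 without either young library) to 3 in cluster 5, and from 0 to 4 (without middle-aged day 6) in clusters 7 and 4, with 2 in cluster 7 without young day 6. For age they ran from 0 to 3 (without young day 10) in cluster 4. H2-DMb2 had no UMI left in some cluster 5 libraries under the lineage filter and gave no ratio there. All 45 bulk checks kept their values within the counting interval. In cluster 10, the log2 ratio of H2-Aa between ages on day 6 ran from 1.47 to 2.61 over the alternatives. The upper value came with the lineage filter, which can also drop microglia.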
